A study of Drosophila melanogaster
Drosophila virilis with 26 samples.

Results

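The 9 genes described here act in cellularization, and they were taken by their exact D. melanogaster names from the 13802 D. melanogaster genes of the full-depth count table. Of these, 4 are classed as early zygotic genes (nullo, bnk, slam and kuk) and 5 as cytoskeletal genes supplied by the mother (dia, nuf, zip, sqh and pnut). Whether the RNA of each gene was maternal or zygotic in origin in these embryos was not tested. All 9 were found, and all 9 had enough reads to be tested in every comparison at full depth.

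Cellularization is the step in which the syncytial fly embryo, whose nuclei share 1 cytoplasm, turns its cortical nuclei into a sheet of cells. Membrane furrows grow in between the nuclei, with actin, non-muscle myosin II, a formin and septins at their leading edge. Most of that machinery is loaded into the egg as maternal RNA and protein, whereas a handful of genes that are transcribed for a short time as the zygotic genome is switched on are needed to organize it.

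The libraries were made from TRIzol-extracted total RNA of pooled whole embryos aged 0 to 4 h, with D. virilis RNA mixed into D. melanogaster RNA, and were prepared with 6 protocols. Clontech (a low-input library kit, here fed with cDNA made with TruSeq reagents), TotalScript (oligo-dT primed, with libraries made by transposase) and SMART-seq2 (template switching and pre-amplification of full-length cDNA) had 4 libraries each from 1 ng of RNA, at 0, 5, 10 and 20% D. virilis. SMART-seq2 2.5x dilution and SMART-seq2 5x dilution, in which the volume of the tagmentation reaction was cut, had 5 libraries each from 1 ng, with a further mixture of 1%. Both dilutions were made in a later experiment than the other protocols. In their comparisons with TruSeq, the protocol and the experiment thus cannot be told apart. TruSeq, the standard kit, had 4 libraries from 100 ng. No genotype, strain, sex or treatment is given, and no mixture was repeated within a protocol, so the libraries of a protocol are preparations of 1 set of RNA mixtures, and the p-values below measure only the spread between such preparations. The comparison asks whether a protocol for small samples returns the same relative level of these genes as TruSeq does.

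All levels are CPM, the reads of a gene per 1000000 reads on D. melanogaster genes in the same library. They are not corrected for length, so a gene is compared with itself across protocols and not with other genes. The reads on D. melanogaster genes ranged from 2762902 to 7842785 in the Clontech libraries, from 1561692 to 3395646 in TotalScript, from 1804452 to 1995639 in SMART-seq2, from 12467391 to 16967107 in the 2.5x dilution, from 11215999 to 19011285 in the 5x dilution and from 18971801 to 55055710 in TruSeq. The RNA carried the markers of young embryos. The maternal germ plasm and axis genes bcd, nos, osk, gcl and pgc were read in every library, at summed levels of 6679 to 7223 CPM in TotalScript, 3441 to 3996 CPM over the 3 kinds of SMART-seq2 library, 2319 to 2486 CPM in Clontech and 2202 to 2401 CPM in TruSeq. Of the patterning genes listed as zygotic markers, only hb was well read, at 119.6 to 308 CPM. The others, Kr, eve, ftz, zen and sna, had medians of 1.26 to 4.03 CPM, and 4 of them were at 0 in at least 1 library. Whether the hb RNA was zygotic or maternal in origin was not tested. Markers of later stages or other tissue (elav, Mhc, Yp1, Yp2, Yp3, ninaE and Cp36) summed to at most 6.01 CPM in any library, and Cp36 was at 0 in 24 of the 26 libraries. In TotalScript, 42.3 to 52.7% of the alignments were not assigned to a gene, against 17.3 to 28.1% in the other protocols. Most of these in TotalScript were alignments that were not unique. Such alignments made up 32.2 to 41.25% of all alignments there, against 5.96 to 17.05% in the other protocols. The part of these differences in the results below was not tested. In a bulk sample such as this, fewer embryos of a stage and less RNA per embryo cannot be told apart.

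**Figure D1:**
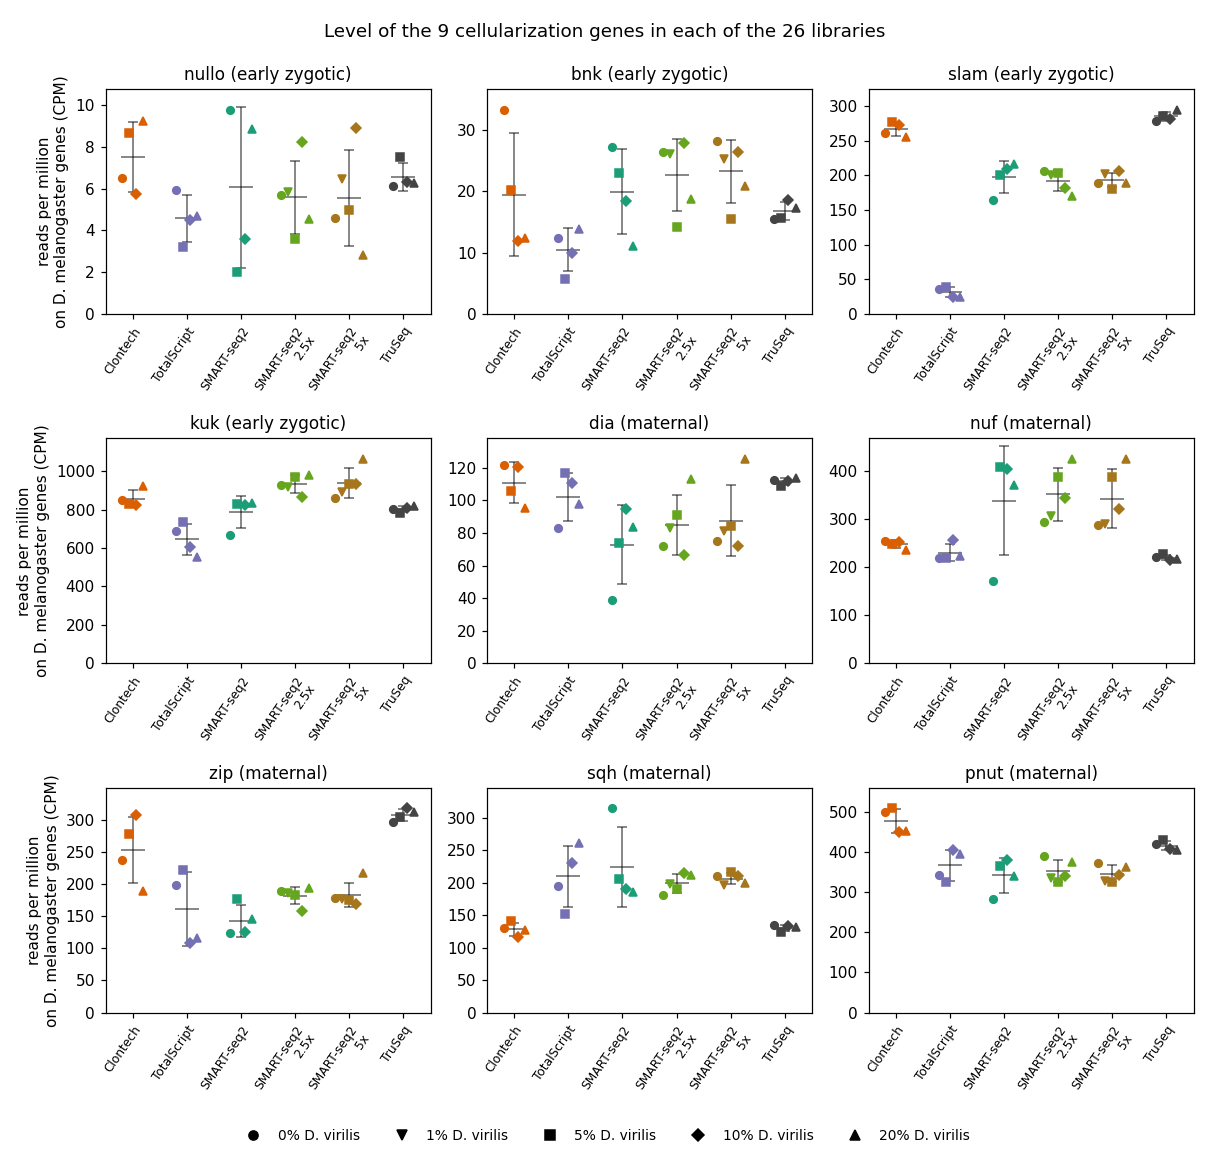
Level of each of the 9 genes in each library, in CPM, by protocol; each point is a library, its shape gives the share of D. virilis RNA, and the black marks are the mean and SD. The 4 slam points of TotalScript lie between 25.0 and 39.1 CPM, far below the 279 to 295 CPM of TruSeq, and the zip and sqh points move in opposite directions in SMART-seq2.

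Among the early zygotic genes, slam moved the most. Slam protein marks the furrow tips, where it is needed for the membrane to grow and for myosin to be recruited. It had 35.7, 39.1, 25.0 and 25.0 CPM in the 0, 5, 10 and 20% TotalScript libraries, against 279, 285, 281 and 295 CPM in the TruSeq libraries of the same mixtures. In SMART-seq2 it had 164, 200.4, 209 and 216 CPM, and in Clontech 261, 277, 273 and 255 CPM. Every TotalScript library thus lay below every other library for slam, and the SMART-seq2 libraries lay below all of those of TruSeq and Clontech. The slam values were 206, 201, 203, 181 and 171 CPM in the 2.5x dilution and 189, 202, 180.4, 206 and 189 CPM in the 5x dilution, both at mixtures of 0, 1, 5, 10 and 20%. The mean over TotalScript was 31.2 ± 7.26 CPM, against 285 ± 6.97 CPM in TruSeq (SD, n = 4 each). By edgeR's quasi-likelihood test with Benjamini-Hochberg adjustment over all genes tested, slam was 9.46-fold lower in TotalScript (log2 fold change -3.24 ± 0.13 SE, adjusted p = 3.93e-08). It was lower by a smaller factor in SMART-seq2 (log2 fold change -0.53 ± 0.10, adjusted p = 0.00142), the 2.5x dilution (-0.57 ± 0.07, adjusted p = 3.82e-05) and the 5x dilution (-0.56 ± 0.06, adjusted p = 1.14e-05). These 4 calls of slam held under every alternative that was run. The TotalScript values rest on 61 to 85 reads a library, where counting error alone gives a coefficient of variation (CV, the SD as a percent of the mean) of 11.6%.

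The gene kuk, whose product Kugelkern sits at the nuclear envelope and is needed for the nuclei to elongate, fell in TotalScript only among the 5 comparisons with TruSeq. It had 689.8, 735, 607 and 555 CPM in TotalScript and 803, 784, 810.2 and 820.4 CPM in TruSeq, and the ranges did not overlap. The change was small (1.25-fold lower, log2 fold change -0.32 ± 0.09 SE, adjusted p = 0.00703 in edgeR's test). In the dilutions kuk was higher, at 863 to 982 CPM in the 2.5x and 862 to 1064 CPM in the 5x dilution, with log2 fold changes of 0.21 (adjusted p = 0.00761) and 0.22 (adjusted p = 0.0129) in edgeR's test. These 2 calls depended on the scaling. With library sizes set by the D. melanogaster total, the median gene was itself higher by 0.19 on the log2 scale in SMART-seq2, and by 0.22 in each dilution, so kuk moved there by about as much as the median gene. When TMM scaling removed that shift, the log2 fold changes of kuk were 0.02 and 0.03 (edgeR adjusted p = 0.791 and 0.764). The call in the 2.5x dilution was also lost in 1 fit of all 26 libraries (adjusted p = 0.0504 in edgeR's test). In full-volume SMART-seq2, kuk had 666, 827, 825 and 835 CPM, against the TruSeq values above, and was not called (log2 fold change -0.03, adjusted p = 0.792 in edgeR's test).

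The remaining zygotic genes had few reads. The gene nullo, needed to keep the furrow tips stable early in cellularization, had 12, 5, 15 and 16 reads in the 4 TotalScript libraries, 18, 4, 7 and 16 reads in SMART-seq2, and 338, 143, 198 and 167 reads in TruSeq. In CPM the nullo values were 3.20 to 5.94 in TotalScript, 2.0 to 9.78 in SMART-seq2 and 6.14 to 7.54 in TruSeq. The TotalScript libraries were thus all below those of TruSeq, while the SMART-seq2 libraries spanned them. No comparison called nullo. The closest was TotalScript over TruSeq, at a log2 fold change of -0.48 ± 0.20 SE (adjusted p = 0.0511 in edgeR's test). In the other comparisons with TruSeq its log2 fold change was 0.17 ± 0.21 in Clontech, -0.13 ± 0.35 in SMART-seq2, -0.23 ± 0.25 at the 2.5x and -0.24 ± 0.30 at the 5x dilution, each less than its SE. In the dilutions nullo had 41 to 137 reads a library, and its CV was 31.2% (2.5x) and 41.2% (5x), where counting error alone gives 11.7 and 12.0%. Without the 0% TotalScript library nullo was called in TotalScript over TruSeq (log2 fold change -0.57, adjusted p = 0.0446 in edgeR's test).

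Bottleneck, the product of bnk, holds back the contraction of the actomyosin network until the furrows have grown. It had 12.4, 5.76, 9.94 and 13.8 CPM in TotalScript, against 15.5, 15.7, 18.6 and 17.3 CPM in TruSeq. The groups did not overlap, and bnk was 1.52-fold lower in TotalScript (log2 fold change -0.61 ± 0.18 SE, adjusted p = 0.0114 in edgeR's test). On the sampled counts, which hold fewer reads, its log2 fold change was -0.40 and the call was lost (adjusted p = 0.242 in edgeR's test), as it was in 1 fit of all 26 libraries (adjusted p = 0.0808) and without the 10% TotalScript library (adjusted p = 0.0501). Clontech had 33.3, 20.2, 11.9 and 12.3 CPM for bnk, a range that took in every TruSeq value, and the log2 fold change of 0.15 was below its SE of 0.27. In the 5x dilution bnk had 15.5 to 28.2 CPM and was called higher (log2 fold change 0.47 ± 0.17, adjusted p = 0.0277 in edgeR's test). That call was lost with TMM scaling (log2 fold change 0.27, adjusted p = 0.171 in edgeR's test), with DESeq2, in 1 fit of all 26 libraries (adjusted p = 0.132), without the 0, 1 or 10% library of the 5x dilution, and without the 0, 5 or 20% TruSeq library. In the 2.5x dilution, at 14.2 to 27.8 CPM, bnk was called only without its 5 or 20% library, and in SMART-seq2 only without the 20% library. In the Release 6 annotation, the span of nullo overlaps that of CG12541 and the span of bnk that of mesh. The reads were counted without regard to strand, so reads of such neighbours cannot be told apart where they overlap.

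Among the maternal genes, 2 that encode chains of non-muscle myosin II moved in opposite directions. The gene zip encodes the heavy chain of this myosin. It had 199, 222, 108 and 116 CPM in TotalScript, 123, 177, 125 and 145 CPM in SMART-seq2, and 296, 305, 318 and 312 CPM in TruSeq. None of these TotalScript or SMART-seq2 libraries reached the TruSeq range, whereas the Clontech libraries, with 237, 278, 308 and 189 CPM, ran into it. In the dilutions zip had 159 to 194 CPM (2.5x) and 169 to 216 CPM (5x). The mean over SMART-seq2 was 143 ± 24.9 CPM, against 308 ± 9.61 CPM in TruSeq (SD, n = 4 each). By edgeR's test zip was 2.16-fold lower in SMART-seq2 (log2 fold change -1.11 ± 0.12 SE, adjusted p = 5.08e-05) and 1.94-fold lower in TotalScript (-0.96 ± 0.20, adjusted p = 0.00151). It was also lower in the 2.5x (-0.76 ± 0.07, adjusted p = 3.77e-06) and 5x dilutions (-0.75 ± 0.08, adjusted p = 6.37e-06). The 10 and 20% TotalScript libraries stood at about the same low zip level, and the 0 and 5% libraries lay well above them.

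The gene sqh encodes the regulatory light chain of the same myosin. It had 194, 152, 230.4 and 261 CPM in TotalScript, 315, 205, 189.9 and 185 CPM in SMART-seq2, and 134, 124, 133 and 131 CPM in TruSeq. Every library of both low-input protocols was above every TruSeq library. The same held for the 2.5x dilution, at 180.4 to 215 CPM, and the 5x dilution, at 196 to 216 CPM, but Clontech, at 116 to 140.3 CPM, spanned the TruSeq values. By edgeR's test sqh was 1.62-fold higher in TotalScript (log2 fold change 0.70 ± 0.14 SE, adjusted p = 0.000826), and in SMART-seq2 it was 1.71-fold higher (0.78 ± 0.16, adjusted p = 0.00239). The log2 fold changes were 0.61 ± 0.07 in the 2.5x dilution (adjusted p = 2.52e-05) and 0.66 ± 0.06 in the 5x dilution (adjusted p = 3.30e-06). The calls of zip and sqh in these 4 comparisons held under every alternative that was run, TMM scaling included.

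Within a library, the number of sqh reads per zip read does not depend on how the library is scaled. It was 0.376 to 0.670 in Clontech, 0.688 to 2.25 in TotalScript, 1.16 to 2.55 in SMART-seq2, 0.955 to 1.35 in the 2.5x dilution and 0.924 to 1.24 in the 5x dilution, against 0.405 to 0.453 in TruSeq. All 4 TruSeq libraries thus held more reads of zip than of sqh, and all 4 full-volume SMART-seq2 libraries held more of sqh. In TotalScript the ratio was 0.978 and 0.688 in the 0 and 5% libraries and 2.14 and 2.25 in the 10 and 20% libraries. The ratio was chosen after these values were seen and was not tested.

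Nuclear fallout, the product of nuf, works with Rab11 to bring vesicles from the recycling endosome to the furrows. It had 171, 408, 404 and 369.6 CPM in SMART-seq2, 293, 307, 388, 343 and 424 CPM in the 2.5x dilution and 288, 289.9, 388, 321 and 425 CPM in the 5x dilution, against 221, 227, 215 and 217 CPM in TruSeq. All 10 dilution libraries were above TruSeq, but in full-volume SMART-seq2 the 0% library lay below it and the other 3 far above. By edgeR's test nuf was higher in the 2.5x (log2 fold change 0.67 ± 0.11 SE, adjusted p = 0.000172) and 5x dilutions (0.64 ± 0.12, adjusted p = 0.000408). In SMART-seq2 the log2 fold change was 0.62 ± 0.22 (adjusted p = 0.0367), and this call was lost with TMM scaling (0.46, adjusted p = 0.140), with DESeq2 (adjusted p = 0.149), without any 1 of the TruSeq libraries and without the 5, 10 or 20% SMART-seq2 library. Without the 0% SMART-seq2 library the log2 fold change was 0.84 ± 0.05 (adjusted p = 1.54e-08). TotalScript, at 219 to 256 CPM, did not differ from TruSeq beyond the spread (log2 fold change 0.06 ± 0.07, adjusted p = 0.432 in edgeR's test). In the Release 6 annotation the span of nuf overlaps those of CG7768 and saturn.

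The formin gene dia, whose product builds unbranched actin filaments at the furrow tips, was lower in the SMART-seq2 libraries. It had 39.1, 74.2, 94.7 and 83.7 CPM in SMART-seq2, 66.4 to 113 CPM in the 2.5x dilution and 71.9 to 126 CPM in the 5x dilution, against 109 to 114 CPM in TruSeq. Full-volume SMART-seq2 did not overlap TruSeq, while the 20% library of each dilution reached or passed it. In edgeR's test the log2 fold changes were -0.62 ± 0.20 SE in SMART-seq2 (adjusted p = 0.0267), -0.40 ± 0.13 in the 2.5x dilution (adjusted p = 0.0228) and -0.35 ± 0.14 in the 5x dilution (adjusted p = 0.0473). The call in SMART-seq2 was lost without its 5% library or any 1 of the TruSeq libraries, that in the 2.5x dilution without its 0% library or the 0 or 20% TruSeq library, and that in the 5x dilution without any 1 of the TruSeq libraries or without its 0, 1, 5 or 10% library. In 1 fit of all 26 libraries both dilution calls were lost (adjusted p = 0.0641 and 0.0987), and on sampled counts that in the 5x dilution (adjusted p = 0.0920). TotalScript (83.2 to 117 CPM) and Clontech (95.4 to 122 CPM) spanned the TruSeq values of dia and were not called.

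The gene pnut encodes a septin, a filament-forming GTPase of the furrow tips. It had 282, 366, 380.4 and 339 CPM in SMART-seq2, 326 to 389.5 CPM in the 2.5x dilution and 325 to 373 CPM in the 5x dilution, against 405 to 429.7 CPM in TruSeq. These 14 libraries were all below TruSeq. In edgeR's test the log2 fold changes were -0.28 ± 0.10 SE in SMART-seq2 (adjusted p = 0.0343), -0.23 ± 0.07 in the 2.5x dilution (adjusted p = 0.0119) and -0.26 ± 0.06 in the 5x dilution (adjusted p = 0.00312). The call in SMART-seq2 was lost with no filter on low counts (adjusted p = 0.0527), on sampled counts (adjusted p = 0.0572), and without the 20% SMART-seq2 library or any 1 of the TruSeq libraries. In TotalScript pnut had 325 to 404 CPM, also below TruSeq in each library, with a log2 fold change of -0.18 ± 0.08 that missed the threshold (adjusted p = 0.0707 in edgeR's test) and passed it without the 10 or the 20% TotalScript library.

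**Figure D2:**
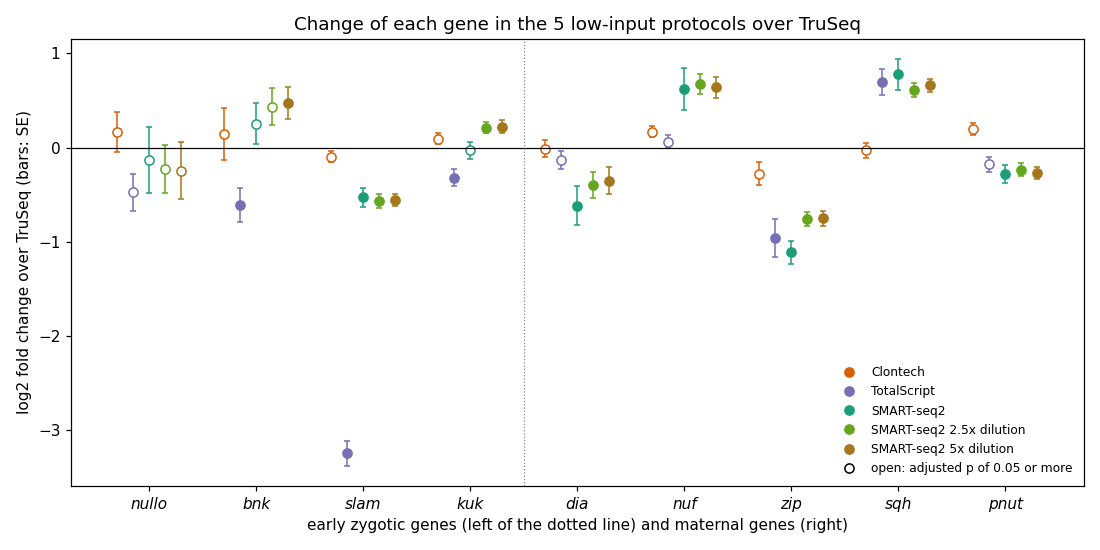
Log2 fold change of each gene over TruSeq in the 5 low-input protocols, with its SE; filled points have an adjusted p under 0.05 in edgeR's test and open points do not. The slam point of TotalScript, at -3.24, lies far below the others, all Clontech points are open, and the 3 kinds of SMART-seq2 library lie below 0 for slam, zip and pnut and above it for sqh and nuf.

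Set side by side, the protocols differed in how many of the 9 genes were called, and so did all genes. TotalScript called 4 of the 9 lower (bnk, slam, kuk and zip) and 1 higher (sqh), while of all 6662 genes tested 36.5% were lower and 38.3% higher. SMART-seq2 called 4 lower (slam, dia, zip and pnut) and 2 higher (nuf and sqh), beside 19.0% lower and 35.9% higher of all 6644 genes. The 2.5x dilution called the same 4 lower and 3 higher (nuf, sqh and kuk), beside 21.4% and 41.7% of 6790 genes. The 5x dilution called the same 4 lower and 4 higher (bnk, kuk, nuf and sqh), beside 22.2% lower and 42.8% higher of 6798 genes. With TMM scaling the count of all called genes was 1681 higher and 1642 lower in SMART-seq2, against 2384 and 1260 with the D. melanogaster total. It was 2061 and 1922 in the 2.5x dilution, against 2834 and 1455, and 2132 and 1951 in the 5x dilution, against 2911 and 1509. Of the 9 genes, TMM scaling left 5, 6 and 6 called in these 3 comparisons. The count of 6 in SMART-seq2 was 3 (slam, zip and sqh) when any 1 of the TruSeq libraries was left out. The comparisons share the TruSeq libraries, so they are not independent of each other.

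The 2 sets of genes can be set beside each other in each protocol. They are named by class, and how much of the RNA of slam or kuk was maternal was not tested. In TruSeq the mean levels, not corrected for length, were 6.56 CPM for nullo and 16.8 CPM for bnk. Those of slam and kuk were 285 and 804 CPM. Of the 4 zygotic genes, 3 fell in TotalScript and none rose, with a median log2 fold change of -0.54. Of the 5 maternal genes, 1 fell and 1 rose, with a median of -0.13, and the median over all genes tested was 0.02. Of all genes tested there, 36.5% fell and 38.3% rose. In SMART-seq2, 3 of the 5 maternal genes fell, 2 rose and only slam of the zygotic genes was called. Of all genes tested in that comparison, 19.0% fell and 35.9% rose. In SMART-seq2 nullo had 4 to 18 reads a library and bnk 20 to 50, with SEs of 0.35 and 0.22. Their lack of a call thus does not show that they were unchanged. Of the maternal calls there, those of dia, nuf and pnut were lost when any 1 of the TruSeq libraries was left out.

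The mean log2 level of the 4 zygotic genes minus that of the 5 maternal genes gives 1 value a library, which does not depend on its scaling but for a pseudocount of 0.5 CPM. As transcripts of unequal length enter it, only its difference between protocols can be read. It was -2.77 to -2.32 in TotalScript, -1.91 to -1.0 in SMART-seq2, -1.90 to -1.29 in the 2.5x dilution, -1.98 to -1.22 in the 5x dilution, -1.75 to -1.35 in Clontech and -1.59 to -1.51 in TruSeq. TotalScript alone lay apart from TruSeq, with a mean lower by 1.06 on the log2 scale (-2.60 ± 0.20 against -1.54 ± 0.04, SD, n = 4 each). Without slam this difference was -0.39. The means of the other protocols were within 0.06 of the TruSeq mean, but their libraries spread over 0.41 (Clontech) to 0.91 (SMART-seq2) log2 units and those of TruSeq over 0.08. Without slam, the means of these other protocols were 0.10 (SMART-seq2) to 0.14 (2.5x dilution) above that of TruSeq. No test was made on this score, which is a summary of the genes described above.

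**Figure D3:**
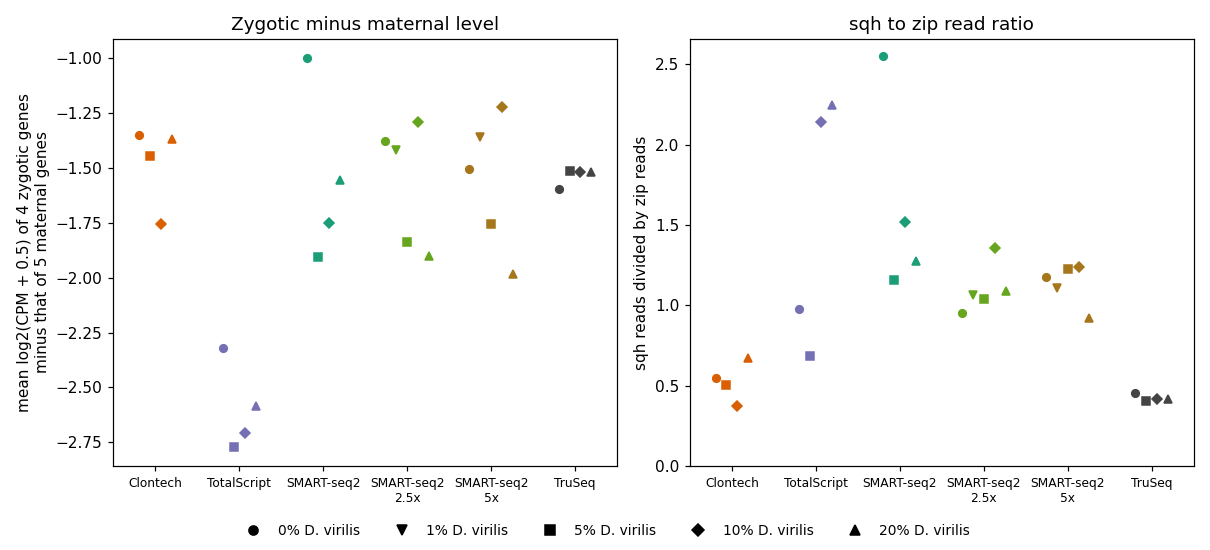
Left, mean log2(CPM + 0.5) of the 4 zygotic genes minus that of the 5 maternal genes in each library; right, sqh reads divided by zip reads in each library (linear scale from 0). The TotalScript points on the left lie between -2.77 and -2.32 and all others above -2, and on the right TruSeq lies between 0.405 and 0.453.

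Clontech had the fewest calls over TruSeq of the 5 low-input protocols. None of the 9 genes was called in edgeR's test, with log2 fold changes of -0.28 (zip) to 0.20 (pnut), 3 of them (nuf, zip and pnut) had an unadjusted p under 0.05, and DESeq2 called none. Of all 6655 genes edgeR called 11 higher, or 0.165%, and none lower (0.00%), whereas 1165 had an unadjusted p under 0.05 and DESeq2 called 399. The CPM of 4 genes nevertheless did not overlap between Clontech and TruSeq. The levels of kuk (825 to 924 against 784 to 820.4 CPM), nuf (236 to 254 against 215 to 227 CPM) and pnut (450.1 to 509 against 405 to 429.7 CPM) were higher in all Clontech libraries, and slam was lower (255 to 277 against 279 to 295 CPM). Among all genes tested, 7.89% did not overlap and were higher and 6.33% did not overlap and were lower. That share was not worked out for the other comparisons. The ranges without overlap given above for single genes in those comparisons thus have no such background. Without the 10% Clontech library, the deepest of the 4, edgeR called 762 genes and 1 of the 9, pnut (log2 fold change 0.23, adjusted p = 0.0425).

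The SMART-seq2 protocols were also compared with each other. Over full-volume SMART-seq2, the 2.5x dilution called none of the 9 genes in edgeR's test, with 2 (kuk and zip) at an unadjusted p under 0.05, and none by DESeq2. Of all 6439 genes 0.00% were higher and 0.00% lower, and 246 had an unadjusted p under 0.05. The largest difference was that of zip, with 159 to 194 CPM in the 2.5x dilution and 123 to 177 CPM in SMART-seq2 (log2 fold change 0.35 ± 0.14 SE). The dilutions were made from separately amplified cDNA in a later experiment, so the volume and the experiment cannot be told apart here.

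The 5x and 2.5x dilutions were made from the same amplified cDNA at each mixture. Over the 2.5x dilution, the 5x dilution called none of the 9 genes in edgeR's test, none at an unadjusted p under 0.05 and none by DESeq2, with log2 fold changes of -0.04 (nuf) to 0.05 (sqh). Of the 6688 genes tested 0.00% were higher and 0.00% lower. With the mixture as a block, which pairs the libraries of 1 cDNA, none of the 9 was called either. Differences between mixtures came back in both dilutions. The gene nuf, for example, had 425 CPM in the 5x and 424 CPM in the 2.5x dilution at 20%, and 288 and 293 CPM at 0%. Likewise nullo was highest at 10% in both, with 8.92 CPM in the 5x and 8.23 CPM in the 2.5x dilution, and bnk was lowest at 5%, with 15.5 and 14.2 CPM.

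The mixtures allow a check of whether the levels move with the D. virilis RNA added. In a fit over all 26 libraries with protocol as a factor, none was called for a slope per 10 percentage points of D. virilis in edgeR's test, and 2 (dia and nuf) had an unadjusted p under 0.05. Over all 6909 genes 0.0289% had a positive slope called and 0.00% a negative one. The slopes of the 9 were between -0.20 (bnk) and 0.16 (dia) on the log2 scale. This fit took the libraries of the 2 dilutions as separate, although they share amplified cDNA at each mixture, so its p-values can be too small. In the libraries other than the dilutions, none of the 9 had an unadjusted p under 0.05 in edgeR's test. There 0 of 6679 genes were called. In the TruSeq libraries alone, none of the 9 had an unadjusted p under 0.05 and 43 of 6639 genes were called in edgeR's test. The slope uses the labelled mixture. In the 20% libraries, D. virilis genes took 17.6% of the reads on genes in each dilution, against 7.17 to 9.40% in the other 4 protocols.

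The spread between libraries was smallest in TruSeq. There the CV of the 9 genes was 1.86 to 9.95%, with a median of 2.78%. The median was 3.38% over all genes with at least 10 reads in at least 4 libraries of the protocol. The same filter was used within each other protocol, but it was not applied to the 9 genes. Their median CV was 27.4% in SMART-seq2 (20.4% over the filtered genes) and 22.4% in TotalScript (16.3%). It was 10.3% in the 5x dilution (15.04%), 8.03% in the 2.5x dilution (15.7%) and 7.93% in Clontech (15.2%). The 27.4% of SMART-seq2 is the CV of sqh, with 315 CPM in the 0% library against 185 to 205 CPM in the others. The CVs were not matched for depth, which was 1804452 to 1995639 reads on D. melanogaster genes in SMART-seq2 and 18971801 to 55055710 in TruSeq. The highest CV was that of nullo in SMART-seq2, 63.4%, where counting error alone gives 35.7%. Of the 54 pairs of gene and protocol, 53 had a CV above that of counting error, the exception being nullo in TotalScript (24.4% against 32.1%). In the deep dilution libraries nuf varied by 15.7% (2.5x) and 17.9% (5x), where counting error gives 1.42 and 1.44%, while in TruSeq it varied by 2.36%.

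**Figure D4:**
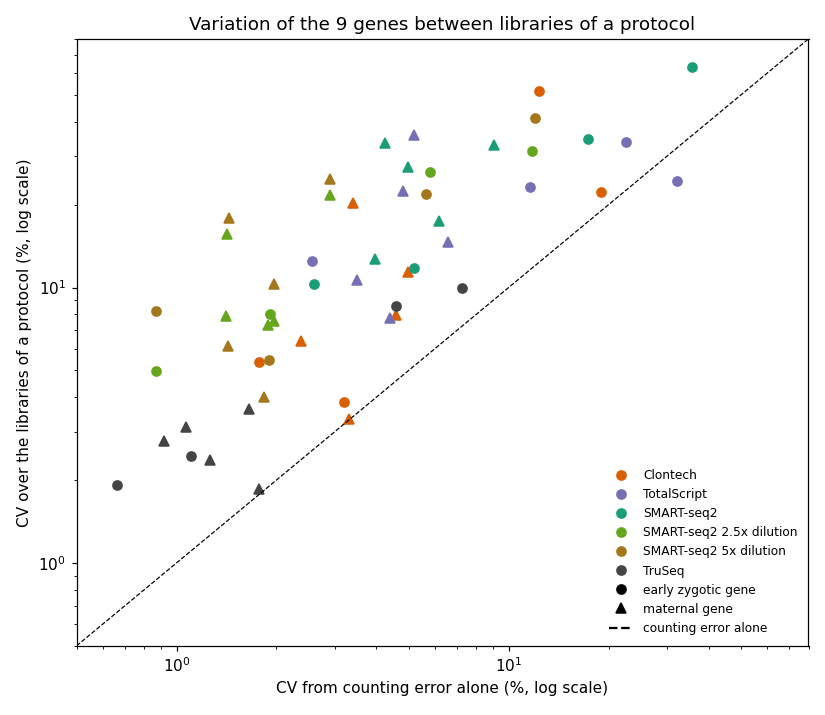
CV over the libraries of a protocol against the CV expected from counting error alone, for each gene and protocol, both in percent on log scales; the dashed line marks counting error alone. The TruSeq points lie between 1.86 and 9.95%, and the 1 point under the line is nullo in TotalScript.

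A wider list of cellularization genes gave the setting for the 9. Of its 27 maternal genes in TotalScript, 14 fell and 8 rose, with a median log2 fold change of -0.21, beside 36.5% lower and 38.3% higher of all genes tested. The largest changes were those of lva, a golgin that feeds membrane to the furrows (43.7 ± 15.1 CPM in TotalScript against 249.6 ± 7.20 CPM in TruSeq, log2 fold change -2.58), and Abl, a tyrosine kinase that restrains actin assembly (69.2 ± 28.2 against 325 ± 9.99 CPM, -2.29, SD, n = 4 each). In SMART-seq2 14 of the 27 fell and 6 rose (median -0.34, against 0.19 over all genes, of which 19.0% fell and 35.9% rose). In the 2.5x dilution 13 fell and 8 rose (median -0.35, against 0.22 over all genes, of which 21.4% fell and 41.7% rose), and in the 5x dilution 14 fell and 8 rose (median -0.40, against 0.22 over all genes, of which 22.2% fell and 42.8% rose). In these 3 protocols the largest changes were those of lva and of cno, which links junctions to actin. For cno the level was 156 ± 26.2 CPM in SMART-seq2 (n = 4), against 521 ± 8.70 CPM in TruSeq (n = 4), with a log2 fold change of -1.74 (edgeR adjusted p = 3.14e-06). In Clontech none of the 27 was called in edgeR's test, and 9 had an unadjusted p under 0.05.

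Of the 6 further zygotic genes, frs was not matched by name and is not used here, and 5 were tested. In TotalScript 2 of them rose and 2 fell, beside 38.3% higher and 36.5% lower of all genes. The risers named by size were CG34137 (log2 fold change 1.37 ± 0.24 SE) and halo, which directs the transport of lipid droplets (1.06 ± 0.15), so the fall of the 3 zygotic members in TotalScript did not extend to all early zygotic genes. In SMART-seq2 1 rose (halo, 0.73 ± 0.19) and 1 fell (Bsg25D, the fly ninein, -0.89 ± 0.09), beside 35.9% and 19.0% of all genes. Halo was also higher and Bsg25D also lower in both dilutions. In the 2.5x dilution 2 of the 5 rose and 1 fell, beside 41.7% and 21.4% of all genes, and in the 5x dilution 2 rose and 2 fell, beside 42.8% and 22.2%. The other calls there, named after their values were seen, were trbl, higher in the 2.5x (log2 fold change 0.46, adjusted p = 0.0332) and the 5x dilution (0.45, adjusted p = 0.0353), and CG34137, lower in the 5x dilution (-0.62, adjusted p = 0.0293), all in edgeR's test. Both were thus opposite in direction to TotalScript, where trbl fell (-1.01) and CG34137 rose. The median gene was itself higher by 0.22 on the log2 scale in each dilution. The calls of this wider list were not checked under TMM scaling or any other alternative. None of the 5 was called in Clontech in edgeR's test, and 2 had an unadjusted p under 0.05.

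The profile most like that of the zygotic genes over the 26 libraries was searched among 5739 genes with at least 10 reads in every library. The 5 highest correlations with the mean profile of the 4 genes were those of Rpt1, a proteasome subunit (Pearson's r = 0.976), IntS12, of the Integrator complex (0.969), Thiolase (0.964), CG1109 (0.961) and CG9018 (0.960). The libraries share protocols, and without the 4 TotalScript libraries, where slam was lowest, r was 0.801, 0.754, 0.655, 0.789 and 0.674 over the remaining 22. Between pairs of the 4 genes themselves, r was -0.064 (nullo and kuk) to 0.709 (slam and kuk) over the 26 libraries. Over the 22 it was -0.389 (nullo and kuk) to 0.268 (nullo and slam), and -0.286 for slam and kuk. The mean profile is thus not one that the 4 genes share.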

How the data were processed

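RNA-seq of 26 libraries was analysed. Single-end reads of 50 bp were mapped by the authors with STAR to a joint FlyBase reference of the 2 species, and HTSeq tallied them by gene name, ignoring strand. The deposited tables hold raw counts under columns labelled FPKM. The first is at full depth, and the authors drew the second at random to 2559187 alignments a library. At full depth 42.3 to 52.7% of the TotalScript alignments and 17.3 to 28.1% of the others were not assigned to a gene and were left out. They fell on no gene, were ambiguous between genes or were not unique.

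The members, lists and tests were chosen with earlier results of these data known. In the text the 9 genes are named in every comparison, with the 2 largest called changes per wider list and comparison over TruSeq, and the 5 genes most alike. Full-depth counts of the D. melanogaster genes with at least 10 reads in at least 4 libraries were tested for each pair of protocols with edgeR 4.0.16 (R 4.3.3; glmQLFit, glmQLFTest), with the D. melanogaster total as the library size and Benjamini-Hochberg adjustment, at a threshold of 0.05. The SE is the log2 fold change divided by the square root of F. A step on simulated data ran the fit with the same dispersion in all libraries. It cannot show how the fit behaves with the unequal spread of the protocols here. CV from counting error is the root of the mean of 1 over the reads; it covers counting error only. Levels and figures used Python 3.11.15, numpy 2.4.6, pandas 2.3.3 and matplotlib 3.10.9. RefSeq's Release 6 table gave overlapping neighbours, and no coordinates are given since the authors used an earlier release. Alternatives were TMM scaling, DESeq2 1.42.0, no filter, the sampled counts, 1 fit of all libraries, the mixture as a replicate block, each library left out, other pseudocounts and each gene left out of the score; added after seeing the data were the counts without the 0% SMART-seq2 or 10% Clontech library and the likeness without TotalScript. The 5x and 2.5x dilutions share amplified cDNA, and their libraries of 1 mixture deviated together (r = 0.859 to 0.932 over genes).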

Additional observations from a re-analysis of the deposited data

Results flagged for a closer look

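Among 54 groups (9 genes in 6 protocols), 7 held a library whose gap to the nearest other library of its protocol passed Dixon's 95% critical value; chance alone flags about 1 in 20. In SMART-seq2 the 0% library stood apart for 3 genes, with 666 CPM of kuk against 825 to 835 CPM in the other 3 libraries, 171 CPM of nuf against 369.6 to 408 CPM, and 315 CPM of sqh against 185 to 205 CPM. Without it, SMART-seq2 over TruSeq again called 6 of the 9 genes in edgeR's test, and 4356 of all 6642 genes, against 3644 of 6644 with it. In the 5x dilution the 20% library stood apart for dia, with 126 CPM against 71.9 to 84.5 CPM, and for zip, with 216 CPM against 169 to 178 CPM. The other 2 were nuf in the 10% TotalScript library, at 256 CPM against 219 to 223 CPM, and nullo in the 5% TruSeq library, at 7.54 CPM against 6.14 to 6.31 CPM. What set these libraries apart was not tested.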

How the results depend on the processing

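The count of genes called moved by over 1.5 times in SMART-seq2 over TruSeq, where it was 6 and ranged from 3 to 6 with 1 library left out, and in Clontech over TruSeq, where it was 0 and ranged from 0 to 1. Left-out libraries gave 5 to 6 genes in TotalScript and 6 to 8 in both dilutions over TruSeq. Fits with the mixture as a replicate block called 0 (Clontech), 5 (TotalScript), 5 (SMART-seq2), 5 (2.5x) and 7 (5x) of the 9 genes over TruSeq, against 0, 5, 6, 7 and 8 without it. Over all genes they called 49, 4690, 3138, 3939 and 4101, against 11, 4982, 3644, 4289 and 4420 without it. The block lost pnut in SMART-seq2 (edgeR adjusted p = 0.0635), kuk and pnut in the 2.5x dilution (0.0512 and 0.0650) and bnk in the 5x dilution (0.0722). Outside the dilutions the mixture did not pair the libraries (r between -0.262 and 0.187 over genes). The count of all genes called in Clontech over TruSeq was 11 in edgeR's test, 399 by DESeq2, 49 with the block, 27 without the filter, 3 in 1 fit of all libraries and 1 to 762 with 1 library left out. The cause of these differences was not tested. The zygotic minus maternal difference in TotalScript of -1.06 was -0.54 from summed counts, -0.39 without slam, -1.29 without nullo, -1.35 without kuk and -1.28 without zip.

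Of 962 log2 fold changes under alternatives, 844 kept direction and side of the threshold, 56 lost the call, 7 gained it and 55 changed sign, all of genes that were not called. Leaving out 1 library gave these ranges for the genes whose sign changed. In Clontech over TruSeq they were -0.23 to 0.37 for bnk, -0.058 to 0.055 for dia and -0.075 to 0.023 for sqh, and in SMART-seq2 over TruSeq -0.058 to 0.043 for kuk and -0.46 to 0.17 for nullo. In the 2.5x dilution over SMART-seq2 they were -0.013 to 0.37 for bnk, -0.17 to 0.16 for nuf, -0.40 to 0.23 for nullo, -0.035 to 0.10 for pnut, -0.12 to 0.0073 for slam and -0.25 to 0.041 for sqh. In the 5x over the 2.5x dilution they were -0.093 to 0.15 for bnk, -0.12 to 0.17 for dia, -0.040 to 0.038 for kuk, -0.13 to 0.042 for nuf, -0.24 to 0.17 for nullo, -0.058 to 0.0074 for pnut, -0.033 to 0.032 for slam and -0.056 to 0.039 for zip. On sampled counts nullo was 0.16 in the 2.5x dilution over SMART-seq2, and bnk -0.021 and slam -0.016 in the 5x over the 2.5x dilution. The slope of sqh on the mixture, 0.0030, was -0.0033 with TMM scaling, -0.023 on sampled counts, -0.023 in experiment 2 (the 4 protocols other than the dilutions) and -0.0024 in TruSeq alone. There the slopes of bnk, slam, nuf, zip and pnut were 0.094, 0.037, -0.019, 0.039 and -0.034, and nullo was 0.040 in experiment 2. On sampled counts nullo had too few reads to be tested in TotalScript over TruSeq. Depth limits nullo and bnk most, with 4 to 50 reads in the SMART-seq2 and TotalScript libraries.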
